A study of Mus musculus with 23 samples.

Results

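The 9 genes described here are the neurofilament genes Nefl, Nefm, Nefh and Ina, the microtubule genes Tubb3, Map2, Dcx and Stmn2, and the splicing factor gene Rbfox3, all of which serve as neuronal markers. They were chosen by name and make up 9 of the 35385 gene rows of the tables. They were measured by poly(A) RNA sequencing in cultured mouse cells of the oligodendrocyte lineage, as 23 libraries in 8 groups. In the SOX6 experiment, cells in differentiation-permissive medium, called OLs (oligodendrocytes) in the labels, carried Sox6 guide 1 (3 libraries), Sox6 guide 2 (3 libraries) or a non-targeting control guide (3 libraries). Oligodendrocyte progenitor cells (OPCs) in growth medium carried guide 1 (2 libraries), guide 2 (3 libraries) or the control guide (3 libraries). A separate set held sorted OLs (3 libraries) and sorted OPCs (3 libraries) without guides.

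All cells came from OPCs derived in culture from 2 epiblast stem cell lines, EpiSC5 (mouse strain 129SvEv) and 129O1 (strain 129S1/SvImJ), which were purified after 4 passages by their surface CD140a and NG2. The labels do not say which line gave which library of the SOX6 experiment. Guides, designed for the Brie library, were delivered with the lentiviral vector CRISPRv2, which also carries Cas9 and puromycin resistance, and infected cells were kept in puromycin at 500 ng/mL for 96 hours. Control and targeted cells went through the same steps and derived from 1 original OPC batch. Each group is taken to be a pool of infected cells kept in puromycin and not a clone. Cells were lysed after 60 hours in either medium. The permissive medium lacked T3 (thyroid hormone), and OLs of the SOX6 experiment were not sorted, whereas the sorted OLs were picked magnetically by O1, a surface lipid of differentiated oligodendrocytes. The labels leave unsaid whether libraries within a group are separate cultures. P-values therefore describe only the spread between libraries, which may be technical. Libraries are given below in the order A, B, C of the tables' column letters, which match no replicate number of the labels.

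Neurofilaments are the intermediate filaments of nerve cells. The light, medium and heavy chains (Nefl, Nefm, Nefh) assemble with alpha-internexin (Ina), which appears early in development, into filaments that set the calibre of axons. Tubb3 encodes class III beta-tubulin, Map2 a microtubule-associated protein of dendrites, Dcx doublecortin, which stabilises microtubules in migrating young neurons, and Stmn2 a stathmin of growth cones that binds free tubulin. Rbfox3 encodes the splicing regulator known as NeuN. None of these genes is fully private to neurons: Map2 protein is also known from young oligodendrocytes. SOX6 is a DNA-binding protein of the SoxD group that is known in OPCs as a brake on terminal differentiation.

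The total of estimated counts ranged between 13124580 and 18551822 in the 9 OL libraries and between 13967438 and 16958611 in the 8 OPC libraries of the SOX6 experiment. The 9 genes together took 0.0992% to 0.257% of the counts in OL libraries and 0.118% to 0.161% in OPC libraries. The depth behind the sorted libraries, deposited as TPM (a transcript level scaled for library size and transcript length), is unknown. Sox6 itself checked the labels. In CPM (counts scaled for library size), Sox6 was at 259, 157 and 242 with guide 1, 255, 253 and 255 with guide 2, and 417, 437 and 387 in control OLs. In OPCs Sox6 was at 88.9 and 75.0 CPM with guide 1, 74.4, 67.4 and 86.4 with guide 2, and 165, 201 and 234 with the control guide. No targeted library reached the lowest control of its stage, and the log2 fold change was −0.81 (SE 0.14, adjusted p = 0.00950) in OLs and −1.32 (SE 0.127, adjusted p = 0.00147) in OPCs by the edgeR quasi-likelihood test. The mRNA of the targeted gene was thus lower but present.

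The cells were checked against marker lists for other cell types. Of 13 further neuronal markers, 6 to 9 averaged under 1 TPM in every group, and the transmitter genes Slc17a6, Slc17a7, Gad2 and Slc32a1 were among them throughout. Gad1, another transmitter gene of the list, was not: it averaged 4.05 TPM with guide 1, 3.84 with guide 2 and 3.06 in control OLs. In OPCs Gad1 averaged 0.464 TPM with guide 1, 2.07 with guide 2 and 0.193 with the control guide. Syn1 averaged 7.47 to 10.7 TPM over the groups of the SOX6 experiment. Summed TPM of those 13 genes was 52.7 to 64.6 in targeted OLs and 96.3 to 100.4 in control OLs. In OPCs the sum was 94.0 to 104.1 with Sox6 guides and 124.2 to 130.6 with the control guide. Gap43, a growth-cone protein, carried much of it: mean TPM was 21.7 with guide 1, 22.1 with guide 2 and 53.1 in control OLs. The list as a whole did not fall in OLs. Of 8 tested there by edgeR, 1 was called lower, Gap43, and 0 higher, beside 6.50% of all genes called. The median log2 fold change of the list was 0.06 in OLs. In OPCs 1 of 8 tested was called lower and 0 higher (median −0.35), beside 3.59% of all genes. Summed markers of astrocytes were 5830 to 6733 TPM in targeted OLs and 5139 to 5607 TPM in control OLs, led by Apoe and Aldoc, while Gfap averaged at most 2.48 TPM in any group of the SOX6 experiment. Oligodendrocyte markers summed to 1138 to 1775 TPM in targeted OLs and 1212 to 1373 TPM in control OLs, and to 95.9 to 122 TPM in targeted OPCs and 64.3 to 81.9 TPM in control OPCs. The 4 microglial markers were each under 1 TPM on average in every group. Of 7 progenitor markers, 4 were called higher and 3 lower in control OLs than in control OPCs, beside 43.0% of all genes called. Pdgfra, which encodes CD140a, averaged 27.6 TPM in control OLs and 4.94 TPM in control OPCs. Cspg4, which encodes NG2, went the other way, at 29.6 TPM in control OLs and 44.0 TPM in control OPCs. The 7 markers summed to 3689 to 3860 TPM in control OLs and 3340 to 3984 TPM in control OPCs. Mog, a late myelin gene, stayed under 1 TPM on average in all groups. The part of these markers in the results below was not tested. In bulk libraries, fewer cells of a type and less RNA per cell cannot be told apart.

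Map2 was by far the most abundant of the 9 genes. Its mean TPM was 387 with guide 1, 535 with guide 2 and 596 in control OLs, 353 with guide 1, 307 with guide 2 and 353 in control OPCs, and 249 in sorted OLs and 290 in sorted OPCs. In control OLs Map2 lay above 99.1% of all detected genes, and it held 64.2% to 85.3% of the summed TPM of the 9 genes in any library. In control OLs the next levels were Dcx at 60.5 TPM, Tubb3 at 48.2, Ina at 28.6 and Rbfox3 at 13.98, followed by Nefm at 5.88 and Nefl at 2.73, with Nefh at 0.318 and Stmn2 at 0.0421. No neighbours in that order overlapped between libraries. In control OPCs Dcx (24.3 TPM) and Ina (21.5 TPM) overlapped, and so did Nefh (0.0554 TPM) and Stmn2 (0.0502 TPM) at the bottom. Sorted OLs kept Map2 at the top but had Tubb3 next, at 50.3 TPM, with Dcx (14.4 TPM) and Ina (9.30 TPM) overlapping. The axonal triplet Nefl, Nefm and Nefh was below Ina, Tubb3, Map2 and Dcx in mean TPM in every group.

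**Figure D1:**
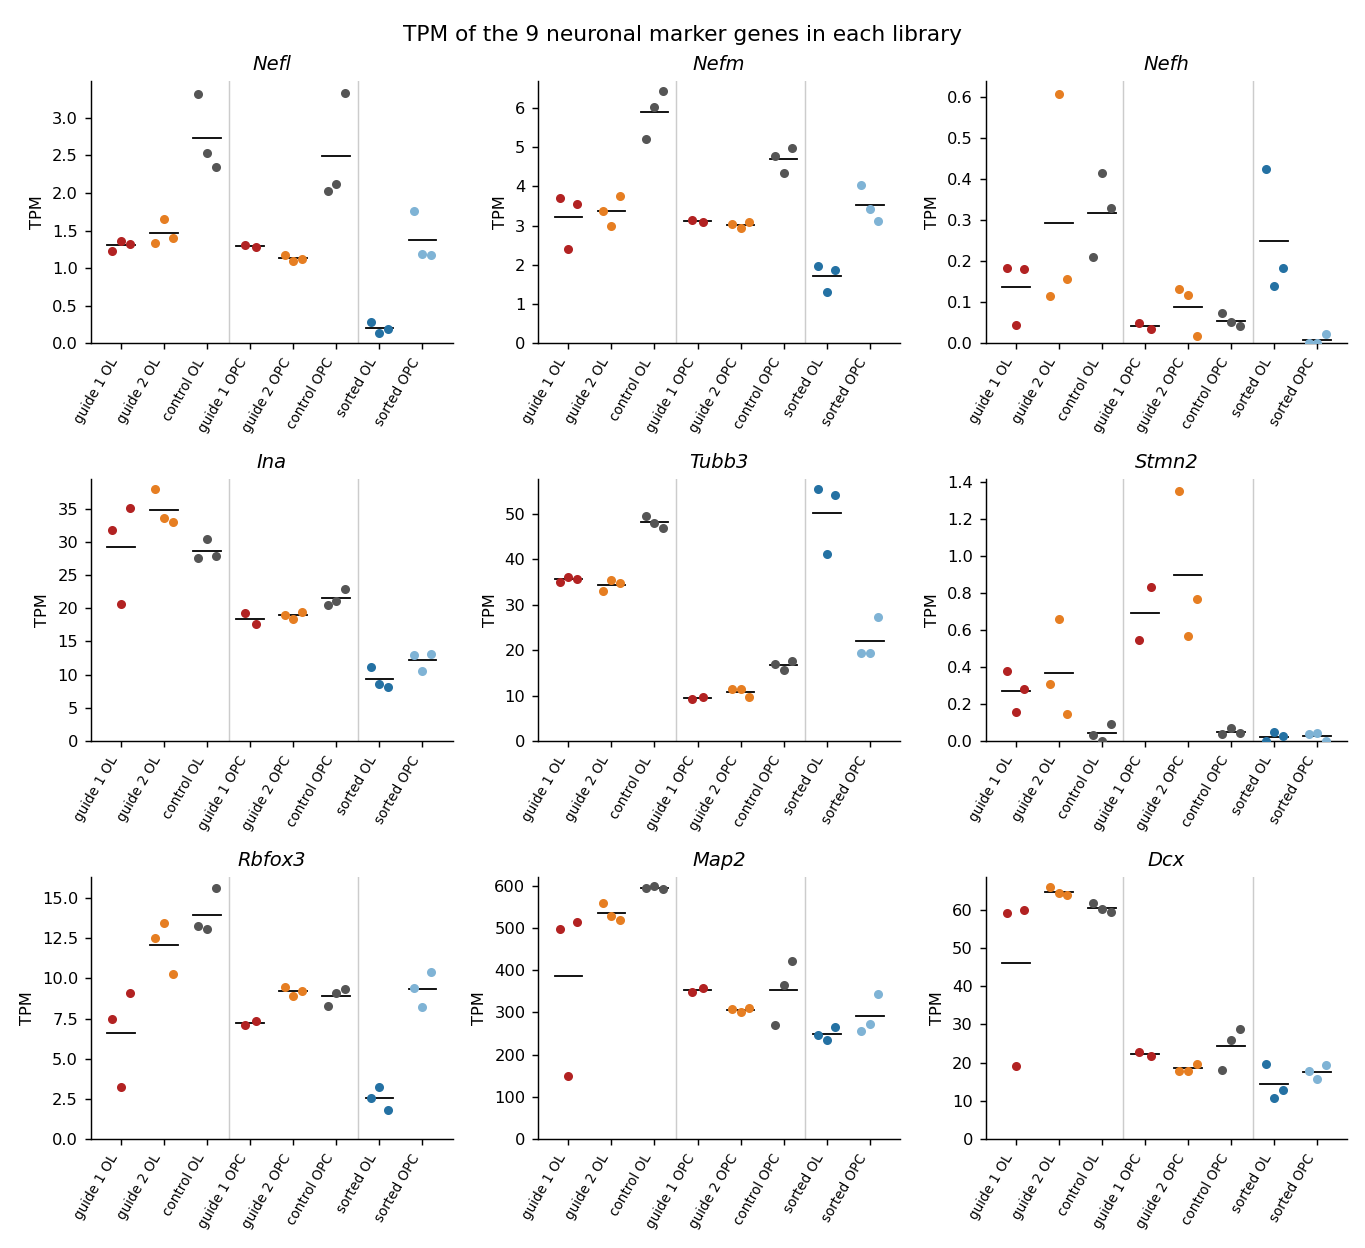
TPM (vertical axis, linear and starting at 0) of each of the 9 genes in each of the 23 libraries, by group; points are libraries and black lines are group means. The Sox6 guide libraries of Nefl and Nefm sit below their controls in both stages, those of Stmn2 above, and library B of guide 1 OLs stands apart for Map2 and Dcx.

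The position of a pair of these genes bears on their values. On GRCm38, Nefl occupies chr14:68083863-68089095 (plus strand) and Nefm chr14:68082590-68124846 (minus strand), so that their exons overlap on opposite strands over 1108 bases. These bases are 32.8% of the exon bases of Nefl and 19.2% of those of Nefm. The library kit does not mark strand, and the estimated counts of Nefl and Nefm added up to a whole number (within 0.01) in 16 of 17 libraries, while Nefl alone was whole in 5 and Nefm alone in 4. The genes thus shared reads in the authors' counting, and their separate values are uncertain; the sum is given beside them below. Nefh (chr11:4938754-4948064) and Rbfox3 (chr11:118489762-118911597) are both on the minus strand of the same chromosome but far apart. The exons of Ina (chr19:47014698-47025327, plus) overlap Nt5c2 on the other strand over 456 bases, or 14.1% of its exon bases. Estimated counts of Ina, of Nt5c2 and of their sum were whole (within 0.01) in 0 of 17 libraries, so the value of Ina is uncertain too. With which genes its reads were divided was not tested. Map2 (chr1:66175273-66442583), Stmn2 (chr3:8509360-8561606) and Tubb3 (chr8:123411424-123422015) lie on the plus strand and Dcx (chrX:143855842-143933311) on the minus strand.

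The starts of 3 genes, Tubb3, Ina and Dcx, are shown. Over the 17 libraries of the SOX6 experiment, Dcx levels ran with both Ina (r = 0.91 of log2 CPM, a description) and Tubb3 (0.86). Within groups, r with Dcx was 0.62 for Ina and −0.85 for Tubb3. Library B of guide 1 OLs, which stood apart as shown further below, is part of that spread within groups. Each line is the stretch of 250 bases before a RefSeq transcript start (GRCm38.p6), read 5′ to 3′ on the gene's own strand. GENCODE starts Tubb3 and Dcx further upstream, so that part of these windows lies inside the genes as positioned above. For Dcx the table holds another window too, chrX:143933220-143933469, in which TATAAA begins at −98 from that window's start site, against −193 in the window shown. Capitals mark a match to TATAAA (the TATA box letters) in Dcx and, on the opposite strand, to CAGCACC (the start of the element bound by the neuronal repressor REST) in Tubb3.
Tubb3, chr8:123411303-123411552, plus strand: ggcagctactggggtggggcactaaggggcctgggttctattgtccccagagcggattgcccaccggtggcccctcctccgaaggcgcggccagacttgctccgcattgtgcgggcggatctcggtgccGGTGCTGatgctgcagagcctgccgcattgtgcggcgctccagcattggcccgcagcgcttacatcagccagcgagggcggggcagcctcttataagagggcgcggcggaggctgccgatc
Ina, chr19:47014431-47014680, plus strand: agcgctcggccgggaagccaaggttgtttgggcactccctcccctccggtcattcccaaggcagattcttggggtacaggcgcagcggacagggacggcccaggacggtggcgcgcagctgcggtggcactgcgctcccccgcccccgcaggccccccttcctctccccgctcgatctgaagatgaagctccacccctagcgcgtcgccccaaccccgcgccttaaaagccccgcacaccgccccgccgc
Dcx, chrX:143933125-143933374, minus strand: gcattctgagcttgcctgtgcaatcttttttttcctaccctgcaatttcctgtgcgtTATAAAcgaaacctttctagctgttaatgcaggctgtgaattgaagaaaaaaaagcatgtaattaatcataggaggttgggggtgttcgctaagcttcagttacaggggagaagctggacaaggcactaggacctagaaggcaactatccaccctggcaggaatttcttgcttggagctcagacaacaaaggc
GC content was 68.0% for Tubb3, 70.8% for Ina and 44.8% for Dcx, beside a median of 52.4% over all 32851 windows of the table. AACAAT, a form of the core of SOX binding sequences, was searched on both strands. It occurs in none of the windows held for Tubb3, Ina, Dcx, Map2 and Rbfox3, and 9.4% of all windows hold it. Other forms of SOX binding sequences were not searched, so their absence from these windows is not shown. TATAAA or its reverse complement occurs in 12.4% of all windows, and CAGCACC or its reverse complement in 5.7%. A match of letters is a description and not a site.

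In OLs, the Sox6 guides went with lower Nefl, Nefm and Rbfox3, and no member was called higher. Of the 9 genes, 8 passed the filter on low counts (Stmn2 did not), 3 were called lower and 5 were not called; over all 13447 genes tested, 874 were called (6.50%), 421 higher and 453 lower. The median log2 fold change was −0.47 over the 8 members and −0.00078 over all genes. Library B of guide 1 stood apart from the other OL libraries, as shown further below, and without it 6 members were called, 1 higher and 5 lower. The 6.50% belongs to the fit with all OL libraries, so it gives no background for that count or the next ones. By edgeR 1 member was called without control library A, guide 1 library A or guide 2 library A or C, and 0 without control library B or C.

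Among the filament genes, Nefl was at 3.44, 5.05 and 3.75 CPM in guide 1 OLs, 3.69, 4.93 and 3.93 CPM in guide 2 OLs, and 9.22, 7.06 and 6.41 CPM in control OLs. Targeted and control libraries did not overlap, and Nefl was 1.83-fold lower (log2 −0.88, SE 0.205, adjusted p = 0.0384). Nefm was at 10.2, 8.75 and 9.95 CPM with guide 1, 9.37, 8.82 and 10.4 CPM with guide 2, and 14.3, 16.5 and 17.6 CPM in control OLs, again without overlap (log2 −0.76, SE 0.127, adjusted p = 0.00823). The call for Nefl held in 2 and that for Nefm in 7 of the 9 fits that left out 1 library. Ina showed 84.6, 73.1 and 94.8 CPM with guide 1, 100.8, 95.8 and 88.0 CPM with guide 2, and 73.4, 81.0 and 72.9 CPM in control OLs. Here the targeted libraries were mostly above the controls, but library B of guide 1 lay among them, and the difference was not called (log2 0.23, SE 0.0979, adjusted p = 0.240). Without that library the Ina difference was 0.27 and passed (adjusted p = 0.0207). Nefh, the heavy chain, was near the limit of detection, with 10, 3 and 8 estimated counts with guide 1, 7, 38 and 9 with guide 2, and 12, 22 and 15 in control OLs. The summed Nefh ratio of targeted to control was 0.743 (95% interval 0.512 to 1.09, counting error only), and the log2 fold change of −0.58 (SE 0.622) was not called (adjusted p = 0.696). Guide 2 library B held 38 of the 75 targeted Nefh counts, and without it the log2 fold change was −1.17 (adjusted p = 0.271).

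Among the microtubule genes of OLs, Tubb3 was at 50.4, 69.4 and 51.7 CPM with guide 1, 47.4, 54.4 and 50.3 CPM with guide 2, and 70.7, 69.1 and 66.4 CPM with the control guide. Only library B of guide 1 reached the controls in CPM. The log2 fold change was −0.36 (SE 0.108, adjusted p = 0.0980), and −0.44 (adjusted p = 0.000926) without that library. On the TPM scale, which divides by each library's own estimated transcript lengths, Tubb3 ranged between 33.1 and 36.2 in the 6 targeted OL libraries and between 46.9 and 49.5 in the 3 controls, with no overlap. Map2 was at 1537, 715 and 1550 CPM with guide 1, 1649, 1591 and 1615 CPM with guide 2, and 1897, 1815 and 1808 CPM in control OLs. All 6 targeted values of Map2 were below the 3 controls, yet the spread that library B adds left the difference uncalled (log2 −0.36, SE 0.211, adjusted p = 0.422); without that library Map2 was −0.23 (adjusted p = 0.000533). Dcx was at 392, 198 and 395 CPM with guide 1, 425, 429 and 422 CPM with guide 2, and 413, 387 and 393 CPM in control OLs. Apart from library B the groups overlapped closely, and the Dcx difference was −0.09 with it (SE 0.194, adjusted p = 0.862) and 0.03 without it. Stmn2 had 10, 5 and 6 estimated counts with guide 1, 9, 20 and 4 with guide 2, and 1, 0 and 2 in control OLs. The ratio of summed Stmn2 counts, per depth, was 8.74 (95% interval 2.83 to 43.7, counting error only), and the gene failed the count filter in the fit of OLs alone. It passed in the fit of both stages together, at 2.92 (adjusted p = 0.0177), and in 7 of the 9 fits without 1 library, none of which called it (2.38 to 3.88).

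Rbfox3 was at 13.5, 9.90 and 17.98 CPM in guide 1 OLs, 18.9, 20.1 and 18.1 CPM in guide 2 OLs, and 25.2, 25.0 and 27.9 CPM in control OLs. No targeted library reached a control in CPM, and Rbfox3 was 1.61-fold lower (log2 −0.69, SE 0.166, adjusted p = 0.0433); the call held in 2 of the 9 fits without 1 library, the one without library B of guide 1 included (−0.60, adjusted p = 0.00439). On the TPM scale the groups overlapped, at 3.22 to 13.4 in targeted and 13.1 to 15.7 in control OLs, and with an offset for transcript length the difference was not called.

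In OPCs, Nefl, Nefm, Ina and Tubb3 were lower with the Sox6 guides and Stmn2 was higher. Of the 8 members tested (Nefh failed the filter), 5 were called and 3 were not; over all 13358 genes tested, 479 were called (3.59%), 261 higher and 218 lower. The median log2 fold change was −0.30 over the 8 members and −0.0049 over all genes. Fewer members were called by edgeR with 1 targeted library left out: 2 without guide 1 library A, 1 without guide 1 library B, and 3 without any of the guide 2 libraries. The 3.59% belongs to the fit with all OPC libraries and gives no background for these counts.

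Nefl was at 3.72 and 3.67 CPM in guide 1 OPCs, 3.54, 3.29 and 3.31 CPM in guide 2 OPCs, and 6.59, 6.43 and 9.56 CPM in control OPCs. The targeted libraries lay within a narrow band below all controls, a 2.10-fold difference (log2 −1.07, SE 0.186, adjusted p = 0.0196). Nefm was at 8.94 and 8.72 CPM with guide 1, 9.17, 8.79 and 9.03 CPM with guide 2, and 15.3, 13.1 and 14.1 CPM in control OPCs (log2 −0.65, SE 0.104, adjusted p = 0.0142). The groups of Nefm did not overlap either. Ina was at 52.8 and 48.0 CPM with guide 1, 55.0, 52.8 and 54.9 CPM with guide 2, and 63.7, 61.5 and 62.7 CPM in control OPCs. The groups of Ina were apart by little more than their spread (log2 −0.24, SE 0.0504, adjusted p = 0.0409), and the call was lost in each of the 8 fits that left out 1 library (adjusted p between 0.0681 and 0.154). Calls for Nefl and Nefm held in 3 and 6 of those 8 fits. Nefh had 1 to 8 estimated counts in targeted OPC libraries and 2 to 4 in the controls, with a summed ratio of 1.20 (95% interval 0.524 to 3.003, counting error only): no difference was detectable at this depth.

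Tubb3 was at 13.7 and 14.2 CPM in guide 1 OPCs, 18.0, 17.9 and 14.8 CPM in guide 2 OPCs, and 28.4, 24.6 and 25.4 CPM in control OPCs. This was a 1.67-fold fall without overlap (log2 −0.74, SE 0.0939, adjusted p = 0.00522), and it stayed called in all 8 fits without 1 library and in all 7 other settings tried. Stmn2 had 16 and 23 estimated counts with guide 1, 14, 14 and 22 with guide 2, and 1, 2 and 1 with the control guide. Every targeted OPC library had more Stmn2 counts than any control, though few in absolute terms: the summed ratio per depth was 12.1 (95% interval 4.55 to 45.2, counting error only), and the fitted log2 fold change was 3.52 (SE 0.523, adjusted p = 0.0110; 7 of 8 fits without 1 library). At a mean of 0.691 TPM with guide 1, 0.896 TPM with guide 2 and 0.0502 TPM in control OPCs, Stmn2 rose out of the lowest 9.93% of detected genes with both means under 1 TPM. Dcx was at 152 and 149 CPM with guide 1, 129, 124 and 140 CPM with guide 2, and 152, 192 and 204 CPM in control OPCs; control library A met the targeted values, and the difference was not called (log2 −0.36, SE 0.0972, adjusted p = 0.0939). Without control library A it was −0.48 (adjusted p = 0.00699). That fit kept control library C, and the 2 libraries deviated in opposite directions with gene length, as shown further below. Dcx deviated from the other controls by −0.38 in A and 0.26 in C on the log2 scale. Map2 was at 1096 and 1055 CPM with guide 1, 949, 988 and 1009 CPM with guide 2, and 1003, 1137 and 1256 CPM in control OPCs, and its overlapping groups gave no call (log2 −0.12, SE 0.0721, adjusted p = 0.467).

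Rbfox3 in OPCs was at 13.01 and 13.8 CPM with guide 1, 19.6, 18.4 and 16.98 CPM with guide 2, and 19.2, 19.5 and 17.98 CPM with the control guide. The pooled difference was not called (log2 −0.25, SE 0.0850, adjusted p = 0.178). Guide 2 and control values were intermixed, and both guide 1 values were below them; guide 2 minus guide 1 was 0.42 (SE 0.107), with an unadjusted p of 0.00380 and an adjusted p of 0.348. In OLs the same difference was 0.46 (adjusted p = 0.692). By edgeR, guide 2 minus guide 1 called 0 of 13447 genes in OLs (0%; 773 at an unadjusted p under 0.05, 29 by DESeq2) and 0 of 13358 in OPCs (0%; 1106 at an unadjusted p under 0.05, 107 by DESeq2). Of the 8 members tested in each stage, 0 were called by either tool, and 1 in each stage, Rbfox3, had an unadjusted p under 0.05.

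Taken guide by guide in OLs, Nefm was lower with guide 1 (log2 −0.75, adjusted p = 0.0254) and with guide 2 (−0.77, adjusted p = 0.0237), and Nefl stood at −0.89 with guide 1 (adjusted p = 0.0841) and −0.86 with guide 2 (adjusted p = 0.10). In OPCs, Nefm was lower with guide 1 (−0.65, adjusted p = 0.0425) and guide 2 (−0.65, adjusted p = 0.0322), and Stmn2 was higher with guide 1 (3.59, adjusted p = 0.0192) and guide 2 (3.45, adjusted p = 0.0204). The guides thus gave like estimates for these genes, while Rbfox3 in OLs was at −0.92 with guide 1 (adjusted p = 0.0346) and −0.46 with guide 2 (adjusted p = 0.300).

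**Figure D2:**
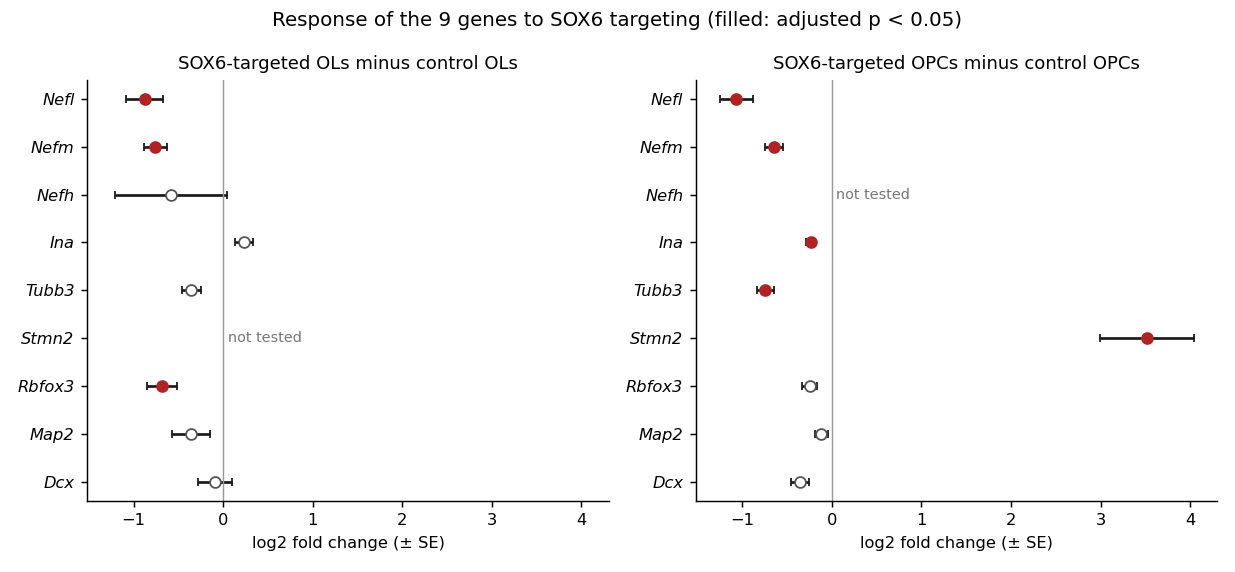
Log2 fold change (horizontal axis) of SOX6-targeted minus control cells for OLs on the left and OPCs on the right; points are edgeR estimates, bars ± 1 SE, and filled points passed an adjusted p of 0.05. Nefl and Nefm are filled on the left of 0 in both stages, and Stmn2 in OPCs is the only point far to the right, at 3.52.

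Because Nefl and Nefm share reads, their sum was also examined, a choice made after seeing the data. The sum was at 13.6, 13.8 and 13.7 CPM in guide 1 OLs, 13.1, 13.7 and 14.3 CPM in guide 2 OLs, and 23.5, 23.6 and 24.1 CPM in control OLs. In OPCs the sum was at 12.7 and 12.4 CPM with guide 1, 12.7, 12.1 and 12.3 CPM with guide 2, and 21.9, 19.5 and 23.6 CPM in controls. In the OL groups the SD of the sum, in CPM, was 0.105 with guide 1, 0.629 with guide 2 and 0.287 with the control guide, below that of Nefl (0.853, 0.654 and 1.47) and of Nefm (0.754, 0.795 and 1.69) in the same order. In the OPC groups the SD of the sum was 0.197, 0.321 and 2.06 CPM in that order, above that of Nefl (0.0406, 0.139 and 1.76) and of Nefm (0.157, 0.197 and 1.12). In each OL group the library highest in Nefl was the lowest in Nefm, whereas in both targeted OPC groups the library highest in Nefl was also the highest in Nefm; pooled within groups over the 17 libraries, r was −0.63 (a description). The summed gene was lower with the Sox6 guides by log2 −0.79 in OLs (SE 0.0883, adjusted p = 0.00101) and −0.78 in OPCs (SE 0.0931, adjusted p = 0.00415). The difference between those responses was 0.01 (SE 0.118, adjusted p = 0.993).

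**Figure D3:**
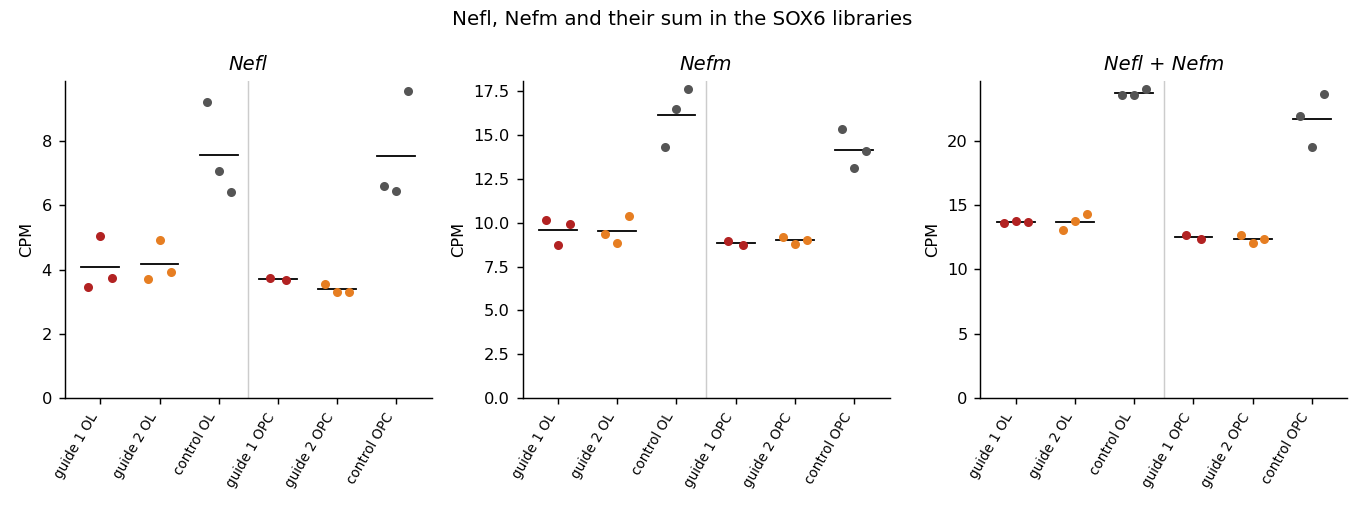
CPM (vertical axis, linear and starting at 0) of Nefl, Nefm and their sum in each library of the SOX6 experiment; points are libraries and black lines group means. In the sum, targeted OL libraries lie at 13.1 to 14.3 and control OLs at 23.5 to 24.1, and targeted OPCs lie at 12.1 to 12.7 and control OPCs at 19.5 to 23.6.

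Whether the response to targeting differed between stages was tested in 1 fit over the 17 libraries, in which 243 of 14352 genes were called (1.69%). Of the 9 members, 1 was called: Ina, whose difference between the OL response and the OPC response was 0.50 (SE 0.111, adjusted p = 0.0349). The direction of Ina was opposite in the stages, above most controls in OLs and below all controls in OPCs. That call held in 3 of 17 fits without 1 library, that without library B of guide 1 OLs included (0.54, adjusted p = 0.00161; Dcx was then called too, at 0.42, adjusted p = 0.0305), and was lost with library totals as scaling, with no filter and with a transcript length offset. The other differences were not called, among them 0.41 for Tubb3 (adjusted p = 0.261), −0.42 for Rbfox3 (adjusted p = 0.469), 0.22 for Nefl (adjusted p = 0.829) and −0.09 for Nefm (adjusted p = 0.885). On the TPM scale the ratio of Ina to Nefm was 8.61 to 11.2 in targeted OLs and 4.34 to 5.31 in control OLs, and 5.71 to 6.27 in targeted OPCs and 4.29 to 4.88 in control OPCs.

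Control OLs were next compared with control OPCs, which shows how the members stood after 60 hours in permissive medium; stage and table cannot be told apart. All 9 members passed the filter, and 6 were called higher in OLs and 0 lower, where 6178 of all 14352 genes were called (43.0%), 3074 higher and 3104 lower. The median log2 fold change was 0.46 over the members and 0.02 over all genes. Tubb3, at 66.4 to 70.7 CPM in control OLs and 24.6 to 28.4 CPM in control OPCs, was 2.63-fold higher (log2 1.40, SE 0.120, adjusted p = 2.63e-07). Dcx was at 387 to 413 CPM in control OLs and 152 to 204 CPM in control OPCs (log2 1.12, SE 0.191, adjusted p = 0.000230). Map2 was at 1808 to 1897 CPM in control OLs and 1003 to 1256 CPM in control OPCs (log2 0.70, SE 0.200, adjusted p = 0.0107). None of these groups overlapped. Map2 kept its call in all 17 edgeR fits that left out 1 library, with an adjusted p of at most 0.0495. It kept that call in 6 of 7 other settings. Smaller rises were called for Rbfox3 (log2 0.46, SE 0.159, adjusted p = 0.0290) and Ina (0.27, SE 0.0884, adjusted p = 0.0209). Nefh, with 12, 22 and 15 estimated counts in control OLs and 4, 3 and 2 in control OPCs, was also called higher (2.32, SE 0.802, adjusted p = 0.0302). These last calls were not stable: Nefh lost its call without any of 5 of the 6 control libraries (adjusted p between 0.0511 and 0.0898; it held without control OL library A). Rbfox3 lost its call without any but control OL library B (0.0538 to 0.0941), and Ina lost its call without control OPC library B (0.0653) or control OL library B (0.0895). Without control OPC library B, 3 members were called, and the 43.0% does not belong to that fit. Nefl (0.01, SE 0.218, adjusted p = 0.980), Nefm (0.19, SE 0.123, adjusted p = 0.242), their sum (0.13, SE 0.0940, adjusted p = 0.299) and Stmn2 (−0.43, SE 0.919, adjusted p = 0.741) gave no call. Oligodendrocyte markers summed to 1212 to 1373 TPM in control OLs and 64.3 to 81.9 TPM in control OPCs.

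The sorted cells gave a different order of changes. Of the 9 members, 7 passed the TPM filter (Nefh and Stmn2 did not), 1 was called higher and 3 lower by limma, where 7263 of 11902 genes were called (61.0%), 3163 higher and 4100 lower. The median difference on the log2(TPM + 1) scale, which understates changes of low genes, was −0.37 over the members and −0.14 over all genes. Tubb3 was at 55.4, 41.2 and 54.1 TPM in sorted OLs and 19.4, 19.4 and 27.3 TPM in sorted OPCs, a difference of 1.16 (SE 0.172, adjusted p = 0.000899). Rbfox3 was at 2.55, 3.23 and 1.80 TPM in sorted OLs and 9.39, 8.23 and 10.4 TPM in sorted OPCs, a difference of −1.57 (SE 0.199, adjusted p = 0.000416). The groups of each of these genes did not overlap. Nefl was at 0.291, 0.139 and 0.192 TPM in sorted OLs and 1.76, 1.19 and 1.18 TPM in sorted OPCs (−0.97, SE 0.183, adjusted p = 0.00293). With a pseudocount of 0.1 in place of 1 the Nefl difference was −2.27 (adjusted p = 0.00301). Nefm was at 1.97, 1.30 and 1.87 TPM in sorted OLs and 4.04, 3.43 and 3.12 TPM in sorted OPCs (−0.74, SE 0.183, adjusted p = 0.00998). The fall of Nefl was the deeper one, so that Nefm stood at 6.77 to 9.72 times Nefl in sorted OLs and 2.30 to 2.88 times in sorted OPCs, with the caution that the pair shares reads.

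Ina was at 11.1, 8.58 and 8.19 TPM in sorted OLs and 12.98, 10.6 and 13.1 TPM in sorted OPCs, and the overlap of its groups left it uncalled (−0.37, SE 0.160, adjusted p = 0.0848). Map2 was at 246, 236 and 265 TPM in sorted OLs and 257, 271 and 343 TPM in sorted OPCs (−0.21, SE 0.114, adjusted p = 0.148), and Dcx at 19.7, 10.7 and 12.8 TPM in sorted OLs and 17.8, 15.6 and 19.5 TPM in sorted OPCs (−0.31, SE 0.217, adjusted p = 0.248). Neither was called; without sorted OL library A, both Ina (−0.49, adjusted p = 0.0386) and Dcx (−0.55, adjusted p = 0.0243) were. Nefh was at 0.425, 0.14 and 0.183 TPM in sorted OLs and listed at 0, 0 and 0.022 TPM in sorted OPCs. Stmn2 was at most 0.048 TPM in any sorted library, below every targeted library of the SOX6 experiment. Tubb3 was the only member called higher in OLs in both the sorted and the unsorted comparison, and Rbfox3 was called in opposite directions there. The 2 sets were normalized separately and differ in sorting and in medium history, so these differences between sets were not tested. Sorted OLs carried 26253 to 26509 TPM of oligodendrocyte markers, sorted OPCs 48.6 to 76.7 TPM, and Gfap averaged 193 TPM in sorted OLs.

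**Figure D4:**
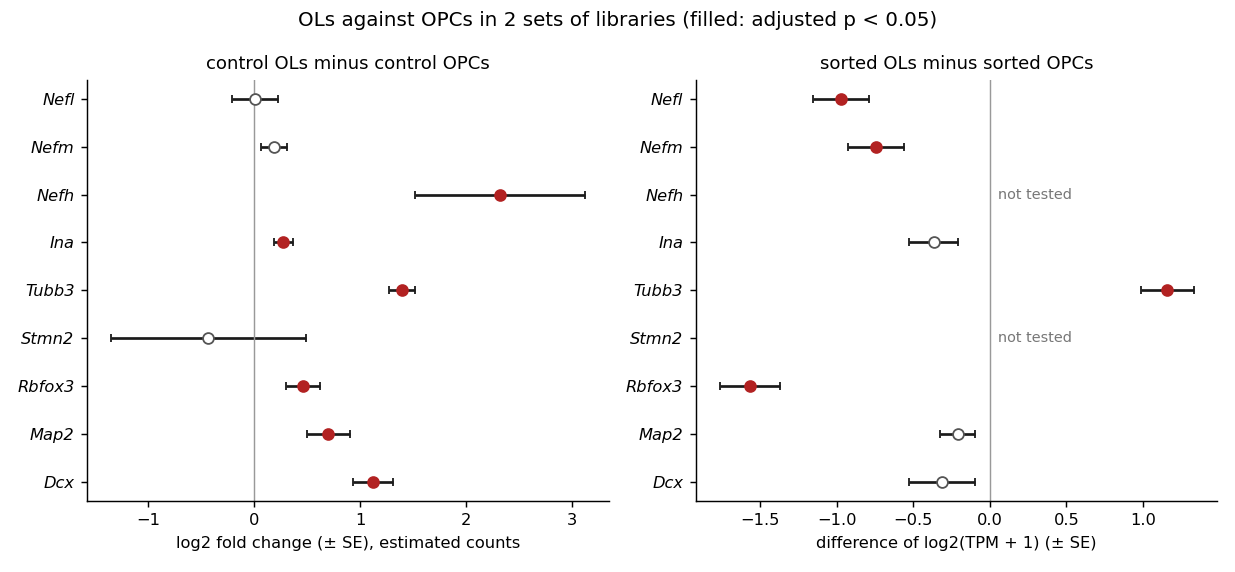
Difference of OLs minus OPCs (horizontal axis) for control cells of the SOX6 experiment, as log2 fold change of counts, on the left, and for sorted cells, as log2(TPM + 1), on the right; bars are ± 1 SE and filled points passed an adjusted p of 0.05. Tubb3 is filled on the right of 0 in both panels, while Rbfox3 is filled at 0.46 on the left panel and at −1.57 on the right panel.

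Part of the spread between libraries followed gene length. For each library, the log2 deviation of 8467 genes from the mean of the other libraries of its group was ranked against gene length, taken from the ratio of estimated count to TPM. Library B of guide 1 OLs had a rank correlation of −0.66, control OPC libraries A and C had −0.47 and 0.48, and the other 14 libraries lay between −0.23 and 0.62. In library B of guide 1 OLs, Map2 deviated by −1.11, Dcx by −0.99, Rbfox3 by −0.63 and Tubb3, which has the shortest transcripts of these, by 0.44 on the log2 scale. Within groups Map2 and Dcx moved together over the 17 libraries (r = 0.98), and Tubb3 moved against Map2 (r = −0.82) and Dcx (r = −0.85); these are descriptions, and libraries of a group share their reference. Nefm deviated by −0.19 there. What made library B differ was not tested.

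**Figure D5:**
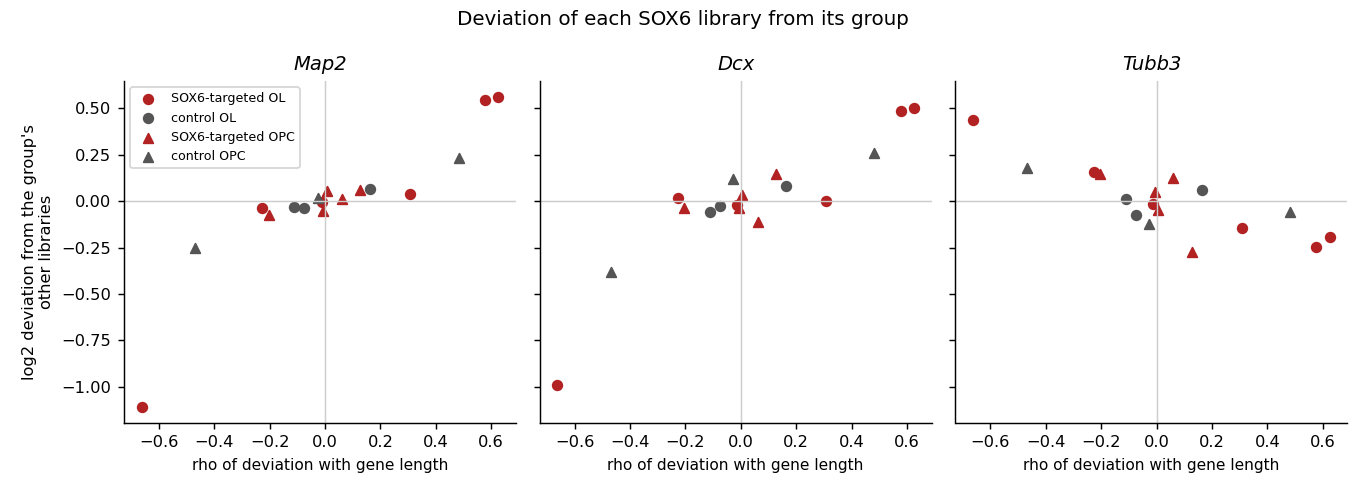
Log2 deviation of Map2, Dcx and Tubb3 in each library from the mean of its group's other libraries (vertical axis), against the rank correlation of all gene deviations with gene length in that library (horizontal axis); circles are OLs, triangles OPCs, red targeted and grey control. Library B of guide 1 OLs is the leftmost point, at −1.11 for Map2 and 0.44 for Tubb3; the other guide 1 OL points sit to the right partly because their comparison includes it.

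Other neuronal genes were described from lists that group them by role, and their counts are to be read beside the 6.50% of all genes called in OLs and the 3.59% called in OPCs. Of 20 further cytoskeletal genes of neurons, 19 were tested in OLs, and 2 were higher and 4 lower with the Sox6 guides, with a median of 0.05. Gap43 (log2 −1.18, SE 0.145, adjusted p = 0.00178) and Mapt, the axonal microtubule protein tau (−0.97, SE 0.0555, adjusted p = 2.88e-05), fell in OLs. Map1b, another microtubule-associated protein, was at −0.98 (adjusted p = 0.0405). Dpysl3, a collapsin response mediator, was at −1.09 (adjusted p = 0.000571), and its relative Dpysl5 was higher (1.54, SE 0.327, adjusted p = 0.0254). Mapt in OLs was named after its value was seen. In OPCs all 20 were tested, 1 was higher and 3 lower (median −0.16), with Mapt at −0.89 (adjusted p = 0.00522), Gap43 at −0.48 (adjusted p = 0.0123), Basp1 at −0.42 (adjusted p = 0.00570) and Dpysl5 at 0.42 (adjusted p = 0.0459). Mapt averaged 72.9 CPM with guide 1, 91.3 CPM with guide 2 and 160 CPM in control OLs, and 10.6 CPM with guide 1, 10.6 CPM with guide 2 and 20.0 CPM in control OPCs. Like Tubb3, Mapt was called higher in control OLs than in control OPCs (3.0, adjusted p = 4.40e-12) and lower with the guides in OPCs.

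Of 26 neuronal RNA-binding and fate genes, 17 were tested in each targeting comparison. In OLs 1 was called higher and 1 lower by edgeR, with a median of −0.25, and 6 were called by DESeq2. In OLs Srrm4, a neuronal splicing activator, rose: it averaged 11.8 CPM with guide 1, 13.4 CPM with guide 2 and 2.66 CPM in control OLs (log2 2.23, SE 0.260, adjusted p = 0.00137). In OPCs 0 were called by edgeR, with 9 at an unadjusted p under 0.05 and 1 called by DESeq2. Of 16 tested synaptic and transmitter genes, 2 rose in OLs, Scg2, a granin of secretory vesicles (1.61, adjusted p = 0.00101), and Camk2a, a calcium-dependent kinase (0.82, adjusted p = 0.00290), and 1 rose in OPCs, again Camk2a (0.85, adjusted p = 0.000740). Of the other intermediate filament genes, 1 of 7 tested in OLs was lower, Lmnb1 of the nuclear lamina (−0.41, adjusted p = 0.0276), and in OPCs 0 of 10 were called by edgeR (3 at an unadjusted p under 0.05, 2 by DESeq2), Vim and Nes among the uncalled at −0.12 and −0.29.

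Close relatives of the members moved in both directions. Of 12 tested, beside 6.50% called over all genes, 4 were higher and 1 lower in targeted OLs, with the largest changes in Dclk3 (1.22, adjusted p = 0.0383), Tubb6 (0.73, adjusted p = 0.0453), Dclk1 (0.60, adjusted p = 0.000955) and, lower, Tubb4a (−0.56, adjusted p = 0.00172). In OPCs 1 of 12 was called (3.59% over all genes), Dclk1, a relative of Dcx (0.29, adjusted p = 0.0242). The genes of REST, which represses neuronal genes outside the nervous system, and its partners gave 0 calls by edgeR of 10 tested in OLs (1 at an unadjusted p under 0.05, 0 by DESeq2) and 0 of 11 in OPCs (0 at an unadjusted p under 0.05, 0 by DESeq2). Rest itself was at −0.97 in OLs (SE 0.823, adjusted p = 0.610) and −0.10 in OPCs (SE 0.338, adjusted p = 0.928). In OLs its groups did not overlap though uncalled, at 6.27 to 12.4 CPM with guide 1, 0 to 10.4 with guide 2 and 13.9 to 19.2 with the control guide.

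Between control OLs and control OPCs, 9 of 20 cytoskeletal genes were higher and 4 lower, and 8 of 17 synaptic genes were higher and 0 lower, beside 43.0% of all genes called in either direction. Scg2 had the largest rise of the synaptic list (4.16, adjusted p = 1.06e-07). Among the relatives, Tubb4a, a tubulin known from myelinating oligodendrocytes, was higher (4.36, adjusted p = 1.50e-11), and Tubb6 (−2.78, adjusted p = 5.51e-09) and Tubb5 (−1.49, adjusted p = 1.12e-08) were lower. In sorted OLs Tubb4a averaged 1434 TPM and in sorted OPCs 4.50 TPM. Elavl3, a neuronal RNA-binding protein, averaged 139 TPM in sorted OLs and 3.44 TPM in sorted OPCs, and it accounted for most of the neuronal marker sum of sorted OLs, 157 to 199 TPM, beside 138 to 161 TPM in sorted OPCs.

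The genes most like 4 of the members were taken as those with the highest Pearson correlation of log2 CPM over the 17 libraries of the SOX6 experiment, among 8461 genes averaging at least 10 CPM. The libraries fall into 6 groups, so these values mostly reflect group levels and carry no p. Nearest to Nefl were Snx25 (r = 0.92), Plpp4 (0.85) and Nr4a1 (0.84), and Snx25 averaged 77.6 CPM with guide 1, 79.7 CPM with guide 2 and 111 CPM in control OLs. Nearest to Ina were Pdp2, Sv2c and Gnao1 (each 0.96), and nearest to Dcx were Ephb2, Tnik and Peli2 (each 0.99). Nearest to Stmn2 were Cdc42ep1 (0.85), Lifr (0.84) and Dmd (0.82). Cdc42ep1 averaged 272 CPM with guide 1, 267 CPM with guide 2 and 186 CPM in control OLs, and 277 CPM with guide 1, 282 CPM with guide 2 and 208 CPM in control OPCs.

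The authors' deposited table gives log2 ratios in the other direction, control over targeted. In the authors' deposited table for OLs, Nefm (0.75, adjusted p = 2.34e-05) and Nefl (0.88, adjusted p = 0.00490) passed 0.05, and Tubb3 (0.35, adjusted p = 0.122), Rbfox3 (0.52, adjusted p = 0.436) and Ina (−0.24, adjusted p = 0.303) did not. In the authors' deposited table for OPCs, Tubb3 (0.74, adjusted p = 5.24e-06), Nefm (0.65, adjusted p = 0.000151), Nefl (1.09, adjusted p = 0.000222), Stmn2 (−3.92, adjusted p = 0.000635) and Ina (0.24, adjusted p = 0.0277) passed. Of the members given there, Rbfox3 in OLs was the one on which that table and the edgeR test fell on different sides of the threshold. Sox6 itself did so too: in the authors' deposited table it was at 0.83 in OLs (adjusted p = 0.0593) and 1.48 in OPCs (adjusted p = 3.01e-05).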

How the data were processed

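RNA of 23 libraries was sequenced as poly(A) RNA with a kit that does not mark strand, per the labels' protocols. Estimated counts and TPM were deposited by the authors per gene symbol for the 17 libraries of the SOX6 experiment, and TPM alone for the 6 sorted libraries; Salmon 0.14.1, DESeq2 (version not given in the sources used here) and mm10 are named in the submitters' processing notes. The authors' log2 fold changes and adjusted p-values were deposited in separate tables, and 17 per-sample columns of those authors' normalized counts were not used. TPM columns do not reach the full sum that the unit implies, so part of each library is outside these tables.

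Counts were rounded, filtered (edgeR filterByExpr, minimum count 10, minimum total 15), scaled by TMM and tested with edgeR 4.0.16 (quasi-likelihood F test, R 4.3.3), separately in OLs and OPCs and in 1 fit for comparisons between stages. Sorted TPM were tested with limma 3.58.1 (trend) on log2(TPM + 1) for genes with TPM of at least 1 in at least 3 libraries. P-values were adjusted over all genes tested (Benjamini-Hochberg, threshold 0.05). DESeq2 1.42.0, other scalings and filters, a TPM pseudocount of 0.1, a transcript length offset and leaving out each library were tried. The fits were tested on simulated data. Intervals of count ratios are exact, at 95%, and cover counting error only. The members and lists were chosen with earlier results of these data known. Named list examples are up to 4 called genes with the largest changes, and up to 2 uncalled. The result of 1 further list gene is not reported here. Gene positions follow GENCODE on GRCm38.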

Additional observations from a re-analysis of the deposited data

Results flagged for a closer look

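The response of Ina to the Sox6 guides differed between stages in the test of the difference itself, which is what brought it here. The log2 difference of the OL response minus the OPC response was 0.50 (SE 0.111, adjusted p = 0.0349, edgeR). All 5 targeted OPC libraries were below all 3 control OPC libraries, and 5 of the 6 targeted OL libraries were above all 3 control OL libraries. The call held in 3 of 17 fits that left out 1 library, with adjusted p-values between 0.00161 and 0.124. It was lost with library totals as scaling, with no filter and with a transcript length offset. Within OLs alone the response of Ina was not called (log2 0.23, adjusted p = 0.240, edgeR). The call for Ina within OPCs was lost in each of the 8 fits that left out 1 library.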

How the results depend on the processing

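Of the alternatives for single genes (the members, Sox6 and the Nefl and Nefm sum), 716 kept direction and side of the threshold, 74 lost the call, 13 gained one, 6 changed sign and 17 had no value to be set against. The count of members called in targeted OLs (3) was 1 with no filter, 1 with an offset for length and 5 when both stages shared a fit, and 0 to 6 with 1 library left out; 6 came without library B of guide 1. In targeted OPCs the count (5) was 1 to 5 with 1 library left out. For control OLs against control OPCs (6) it was 3 to 6, and for sorted cells (4) it was 3 to 6. The count for the difference of responses (1) was 0 with library totals, 0 with no filter, 0 with a length offset, and 0 to 2 with 1 library left out. Shares of all genes called in the fits with 1 library left out are not given here. Member calls added up over the single guide comparisons, which share libraries, numbered 10 by edgeR and 17 by DESeq2. Of 13447 genes in OLs, edgeR called 321 higher and 340 lower with guide 1, and 310 higher and 287 lower with guide 2. Of 13358 genes in OPCs, it called 176 higher and 196 lower with guide 1, and 177 higher and 96 lower with guide 2. With 1 library left out, Dcx in targeted OLs ranged between −0.177 and 0.031, Nefl between control stages between −0.16 and 0.22, Stmn2 between control stages between −1.37 and 0.12, and the Stmn2 difference of responses between −1.12 and 0.36. Over all genes, calls in targeted OLs (874) were 1500 by DESeq2, 579 with the offset and 1604 in the shared fit; in targeted OPCs (479) they were 808, 235 and 254; for the difference of responses (243) they were 507 by DESeq2 and 104 with a length offset. Apart from fits with fewer libraries or genes, the cause was not tested. No paired analysis was possible because the tables' column letters carry no replicate number of the labels. Depth limits Nefh and Stmn2, and the depth of sorted libraries is unknown.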
